A study of Caenorhabditis elegans with 12 samples.

Results

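The arginine kinase family was represented by 5 genes in whole-worm RNA of Caenorhabditis elegans, argk-1 (F44G3.2), F46H5.3, W10C8.5, ZC434.8 and F32B5.1. They were picked by identifier from 20423 features with a value above 0 in at least 1 library. argk-1 drew attention to the family because it was lower in the cat-2 RNAi libraries of this same table, so its levels are given as a description with no test, and so are the contrasts of the other members that use the cat-2 RNAi libraries. Of the 5 genes, 4 were among the 13161 genes that reached at least 0.5 RPKM (reads scaled by feature length and library size) in at least 4 of the 12 libraries and entered the model. F32B5.1 did not.

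The series asked how the worm transcriptome responds when dopamine handling genes are targeted by RNAi in dopaminergic neurons. Worms of strain PMD216 were fed from 1 of 3 bacterial RNAi cultures, namely cat-1 RNAi, cat-2 RNAi or the empty vector control (EV), and each group gave 4 libraries labelled as biological replicates. cat-2 encodes tyrosine hydroxylase, the enzyme that makes the dopamine precursor, and cat-1 encodes the vesicular monoamine transporter. All worms were taken as day 1 adults, uninjured as far as the labels say. All 3 groups carried the same alleles. The labels give the mutations rrf-3(b26) II and rde-1(ne219) V and the transgenes dat-1p::sid1-SL2-rde-1 and dat-1p::GFP, and the study's strain list adds fem-1(hc17) IV, eri-1(mg366) IV and lin-15B(n744) X, with the transgenes named egIs1 and wpSi6 II. In this strain RNAi is meant to work only in dopaminergic neurons, because the dat-1 promoter drives the double-stranded RNA importer SID-1 and the Argonaute RDE-1 there while rde-1 is mutant elsewhere. The RNA came from whole worms, so transcripts of the few dopaminergic neurons were mixed with those of every other tissue, and fewer cells of a type and less RNA per cell cannot be told apart. Since the labels do not say what separates the biological replicates, the p-values measure the spread between these libraries.

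Arginine kinase moves a phosphate group reversibly between ATP and arginine. The product, phosphoarginine, is a store from which ATP can be remade quickly when demand rises, and the enzyme is the invertebrate counterpart of the creatine kinases of vertebrate muscle and brain. In C. elegans, argk-1 is known from long-lived worms that lack the S6 kinase RSKS-1, in which it is raised and is linked to the energy sensor AMPK. Arginine itself is shared with ornithine, proline and polyamine metabolism.

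The libraries held between 18765779 and 21493743 mapped reads, and each library correlated with the others of its group at a mean r of 0.98693 to 0.99183. cat-2 RNAi replicates 2 and 3 had the lowest library quality weights, at 0.331 and 0.629, against 0.7798 to 1.535 for the other libraries. The targeted genes went against the labels. cat-1 had 15 reads summed over EV against 107 with the label cat-1 RNAi. cat-2 had 19 reads summed over EV against 156 with the label cat-2 RNAi. Whether reads from the RNAi constructs themselves are among these was not tested. Markers of 10 cell types were looked for, and each type had at least 1 marker detected. Sums in EV ran from 4.345 RPKM at the lowest for glia to 5941 RPKM at the highest for germline and oocytes. For dopaminergic neurons the sum was 36.47 to 40.51 RPKM, led by cat-4 (mean 27.23 RPKM in EV) and bas-1 (8.295). The other dopaminergic markers were low, with EV means from 0.06024 RPKM (dat-1) to 0.9349 RPKM (dop-2). Directions below are therefore those of the libraries labelled cat-1 RNAi and cat-2 RNAi, called by those names for short.

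The 5 genes lie apart in the genome (build ce11, the assembly WBcel235 of Ensembl). argk-1 is on chromosome V at 16103894 to 16105952 on the plus strand, with 1 annotated transcript of 4 exons. F46H5.3 is on chromosome X at 7230705 to 7238662 on the minus strand, with 2 transcripts. The others are on chromosome I, W10C8.5 at 2853970 to 2855732 (minus), F32B5.1 at 2700420 to 2702158 (plus) and ZC434.8 at 10348055 to 10349369 (minus). ZC434.8 overlaps the end of coa-6, a gene on the opposite strand, and F46H5.3, W10C8.5 and F32B5.1 each overlap a non-coding RNA gene. The sources used here do not say whether the reads were counted by strand, so reads in those overlaps may belong to either gene. The feature length that the RPKM values imply was 1401 bases for argk-1 against 1213 bases of annotated exons, and 1459 against 1177 for ZC434.8, so the authors' gene models differed from this annotation for these genes. For W10C8.5 both lengths were 1343 bases.

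In EV worms the family was led by F46H5.3 and ZC434.8. F46H5.3 stood at 373.1 ± 37.45 RPKM (mean ± SD, n = 4), above 97.9% of the genes tested, and ZC434.8 at 182.7 ± 3.41 RPKM, above 95.4%. W10C8.5 followed at 39.86 ± 5.234 RPKM and argk-1 at 20.69 ± 1.465 RPKM, above 69.3% and 57.5% of the genes tested. F32B5.1 was barely detected, at 0.1407 ± 0.1627 RPKM. RPKM is corrected for length, so these levels can be compared between genes, within the limits of the gene models given above. The order F46H5.3, ZC434.8, W10C8.5, argk-1, F32B5.1 was the same in 12 of 12 libraries, and the ranges of neighbors in the order, taken over all libraries, did not overlap. Summed over the family the level was 616.5 ± 41.38 RPKM in EV, of which F46H5.3 made up 60.4%, ZC434.8 29.7%, W10C8.5 6.45% and argk-1 3.38%. argk-1 was thus a minor part of the family's RNA in whole worms.

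**Figure D1:**
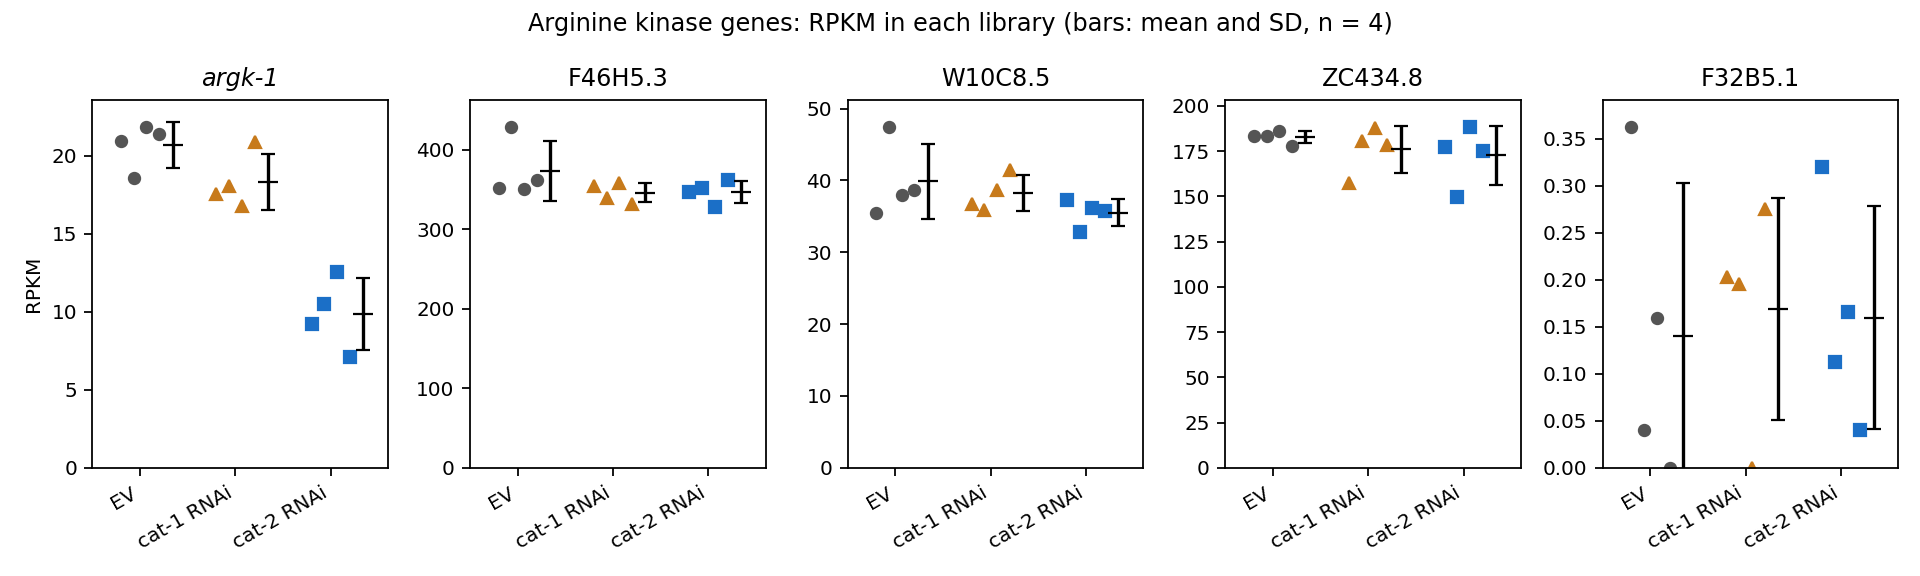
RPKM of each arginine kinase gene in each library (points, in replicate order within a group), with the mean and SD of each group (black bars, n = 4). The 4 cat-2 RNAi libraries of argk-1 lie between 7.073 and 12.55 RPKM, below all 8 other libraries, while the groups overlap for the other 4 genes.

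argk-1 was lower in the libraries labelled cat-2 RNAi. In EV replicates 1 to 4 it measured 20.97, 18.56, 21.84 and 21.39 RPKM, from 568, 500, 597 and 602 reads. In cat-2 RNAi it measured 9.236, 10.52, 12.55 and 7.073 RPKM, from 252, 306, 330 and 194 reads. In cat-1 RNAi it measured 17.57, 18.07, 16.77 and 20.89 RPKM, from 472, 503, 505 and 579 reads. Every cat-2 RNAi library was thus below every library of the other groups. In cat-1 RNAi 3 of the 4 libraries were below every EV library, and the fourth lay within the EV range. Among all genes tested, 2.42% had every cat-2 RNAi library below every EV library, 1.23% had every cat-2 RNAi library below every cat-1 RNAi library, and 8.23% had at least 3 of the cat-1 RNAi libraries below every EV library. Since argk-1 was chosen for its fall in cat-2 RNAi, nothing is read from its place against the first 2 of these shares.

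The group means of argk-1 were 20.69 ± 1.465 RPKM in EV, 18.32 ± 1.791 in cat-1 RNAi and 9.845 ± 2.297 in cat-2 RNAi. On the log2(RPKM + 0.5) scale, limma gave a difference of -1.06 (SE 0.133, 95% interval -1.35 to -0.77) between cat-2 RNAi and EV, which is a ratio of 0.48 (0.393 to 0.585). Between cat-2 RNAi and cat-1 RNAi it was -0.89 (-1.17 to -0.60), a ratio of 0.541. Between cat-1 RNAi and EV it was -0.17 (-0.46 to 0.11), an interval that includes 0. Because argk-1 was chosen for its fall in these same libraries, its intervals describe the fit and are not a test. After that choice they cannot be taken to have 95% coverage. As a share of the family's summed RPKM, argk-1 made up 3.38 ± 0.431% in EV and 1.75 ± 0.428% in cat-2 RNAi, which restates the same values.

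The cat-2 RNAi libraries also spread more. The coefficient of variation of argk-1 was 23.3% in cat-2 RNAi, 9.77% in cat-1 RNAi and 7.08% in EV, where counting error alone would give 6.08%, 4.41% and 4.2%. The lowest library, replicate 4, had 7.073 RPKM, and the highest, replicate 3, had 12.55 RPKM. The libraries with the lowest quality weights, replicates 2 and 3, had the highest argk-1 levels of the group. Without them the difference from EV was -1.3.

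The hypodermal markers did not move together in cat-2 RNAi, though their sum was lower. The summed level of 12 hypodermal markers, all of them found, was 191.7 to 199.0 RPKM in EV, 188.3 to 196.6 in cat-1 RNAi and 150.0 to 182.6 in cat-2 RNAi. The sum was led by the adult cuticle collagen gene col-19, at 145.5 ± 2.513 RPKM in EV and 118.5 ± 16.74 in cat-2 RNAi. It and dpy-13, at 0.6248 ± 0.2197 RPKM in EV, were the 2 markers of the 12 with every cat-2 RNAi library below every EV library, which 2.42% of all genes had. Of the 12 markers 6 had a higher mean in cat-2 RNAi than in EV, sqt-3 among them (9.869 ± 2.042 RPKM in EV and 13.26 ± 2.763 in cat-2 RNAi), and the median log2 difference of those tested was 0.03. In cat-2 RNAi replicates 1 to 4 the hypodermal sum was 182.6, 150.0, 176.8 and 179.5 RPKM, and argk-1 was 9.236, 10.52, 12.55 and 7.073 RPKM. The part of hypodermal or intestinal RNA in the argk-1 result was not tested. Summed markers of intestine (3139 to 3594 RPKM in EV, 3191 to 3440 in cat-2 RNAi), glia (4.345 to 5.02 and 3.556 to 5.075) and body wall muscle (770.0 to 1120 and 759.1 to 826.1) overlapped between these groups. Of the 12 muscle markers 10 had a lower mean in cat-2 RNAi and 2 a higher one, but 9 of the 12 were highest in EV replicate 2. The muscle sum was 1120 RPKM in that library and 770.0 to 812.2 in the other EV libraries, so the EV means lean on 1 library. At an unadjusted p of 0.05 by limma, 2 of the 12 muscle markers were lower and 0 higher (8.84% over all genes). The intestinal sum was led by spp-5, and of the 11 intestinal markers 3 were lower and 0 higher in cat-2 RNAi at an unadjusted p of 0.05 (8.84% over all genes), with none past an adjusted p of 0.05 in limma. Among the 11, ifb-2 had every cat-2 RNAi library below every EV library. Of the 10 glial markers 1 (mir-228) was not detected, and of the 12 intestinal markers opt-2 was not found by name.

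**Figure D2:**
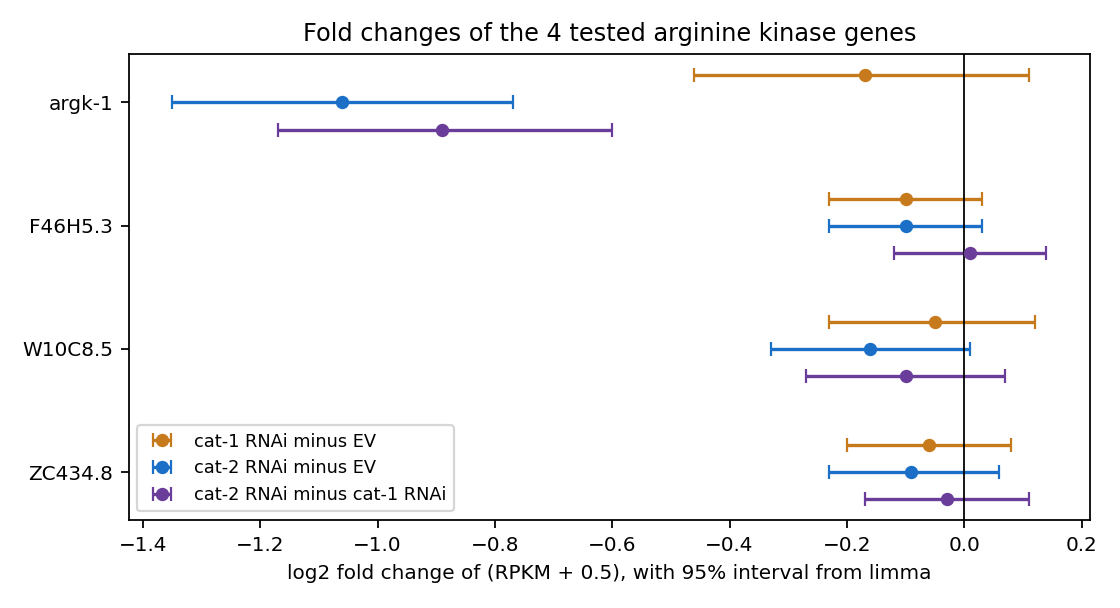
log2 fold change of RPKM + 0.5 for the 4 arginine kinase genes that entered the model (points), with 95% intervals from limma (lines), in the 3 comparisons. argk-1 lies at -1.06 and -0.89 in the comparisons with cat-2 RNAi, and every interval of F46H5.3, W10C8.5 and ZC434.8 includes 0. argk-1 was chosen for its fall in cat-2 RNAi, so its intervals are a description and not a test.

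The question for the rest of the family was whether its members moved with argk-1. F46H5.3, the most abundant member, measured 351.5, 428.8, 350.5 and 361.6 RPKM in EV. It measured 354.3, 339.8, 358.3 and 332.5 RPKM in cat-1 RNAi. In cat-2 RNAi it measured 347.1, 352.4, 328.7 and 361.8 RPKM. The groups overlapped, and EV replicate 2 was above all 11 other libraries. For cat-1 RNAi against EV the log2 difference was -0.10 (SE 0.0605, 95% interval -0.23 to 0.03), with a Benjamini-Hochberg adjusted p of 0.865 by limma, and 2 of 4 cat-1 RNAi libraries were below every EV library. For cat-2 RNAi against EV it was also -0.10 (-0.23 to 0.03). Both comparisons use the same EV libraries.

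ZC434.8, the member of second rank, was the steadiest in EV, at 183.6, 183.6, 185.9 and 177.9 RPKM. In cat-1 RNAi it measured 157.6, 180.6, 187.5 and 178.1 RPKM. In cat-2 RNAi it measured 177.4, 149.4, 188.3 and 175.3 RPKM. In cat-1 RNAi 1 library (replicate 1) was below every EV library and 1 was above every EV library. In cat-2 RNAi 3 libraries were below every EV library, with replicate 2 the lowest, and 1 was above every EV library. The share of all genes with 3 or more such low libraries in cat-2 RNAi was not computed. For cat-1 RNAi against EV limma gave -0.06 (SE 0.0662, -0.20 to 0.08, adjusted p = 0.942). The cat-2 RNAi difference from EV was -0.09 (-0.23 to 0.06).

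W10C8.5 measured 35.43, 47.43, 37.94 and 38.62 RPKM in EV. It measured 36.74, 35.86, 38.66 and 41.51 RPKM in cat-1 RNAi. In cat-2 RNAi it measured 37.24, 32.88, 36.11 and 35.72 RPKM. Again EV replicate 2 was the highest of the 12 libraries, and the groups overlapped. For cat-1 RNAi against EV limma gave -0.05 (SE 0.0795, -0.23 to 0.12, adjusted p = 0.953), and without EV replicate 2 the difference turned to 0.03. For cat-2 RNAi against EV it was -0.16 (-0.33 to 0.01), with 1 of 4 cat-2 RNAi libraries below every EV library.

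In cat-1 RNAi against EV, then, 0 of the 3 members tested passed an adjusted p of 0.05 or an unadjusted p of 0.05. The background for the first was 0.0% (0 of 13161 genes by limma, and 0 by voom on the recovered reads) and for the second 5.94% (782 genes). No member had every cat-1 RNAi library below every EV library, which 1.65% of all genes had. The intervals bound what could have been missed, since they exclude a fall larger than 0.23 on the log2 scale for F46H5.3 and W10C8.5 and larger than 0.20 for ZC434.8. In cat-2 RNAi against EV, which is given without a test for the members, 4 of 13161 genes passed (0.0304%).

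F32B5.1 had 47 reads over the 12 libraries, with 0 to 9 reads in each and 2 libraries at 0. The totals were 14 reads in EV, 17 in cat-1 RNAi and 16 in cat-2 RNAi, and the highest level in any library was 0.3625 RPKM. The ratio of reads to EV was 1.18 (95% exact interval 0.548 to 2.59) for cat-1 RNAi and 1.14 (0.52 to 2.51) for cat-2 RNAi. These intervals cover counting error only and not the spread between libraries. They are wide, from about the argk-1 ratio in cat-2 RNAi to a rise of more than 2-fold, so no difference was detectable at this depth.

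The members were also compared with each other across the 12 libraries. The Pearson correlation of argk-1 on the log2(RPKM + 0.5) scale was 0.08 with F46H5.3, 0.43 with W10C8.5 and 0.31 with ZC434.8, and after the group means were removed it was -0.63, -0.15 and 0.04. F46H5.3 and W10C8.5 had the highest r of the 6 pairs, 0.65, and 0.62 after removal. ZC434.8 had r = 0.03 with F46H5.3 and 0.44 with W10C8.5, and -0.18 and 0.33 after removal. These values describe 12 libraries that share groups and total RNA, and were not tested.

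**Figure D3:**
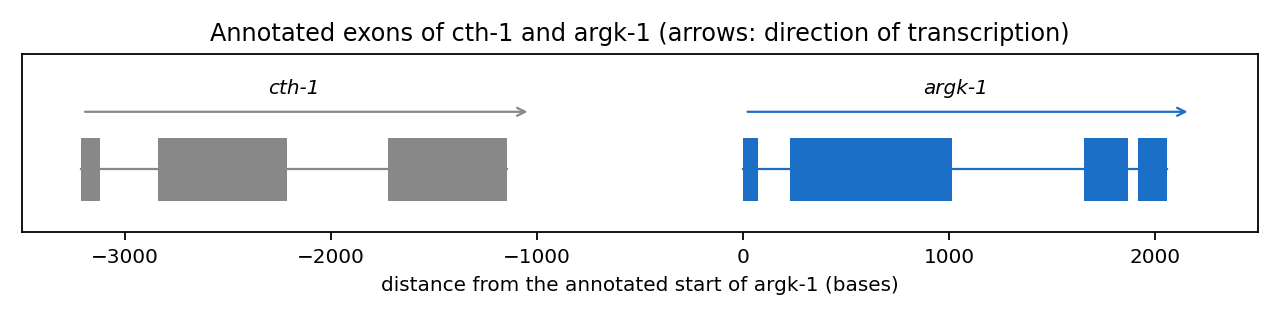
Annotated exons (boxes) of cth-1 and argk-1 on chromosome V against the distance in bases from the annotated start of argk-1, with arrows for the direction of transcription. cth-1 ends 1143 bases before argk-1 starts, on the same strand.

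The nearest protein-coding gene to argk-1 was also the gene most like it. cth-1, which encodes a cystathionine gamma-lyase, an enzyme that releases cysteine in transsulfuration, ends 1143 bases upstream of argk-1 on the same strand. Of 13160 other genes it had the highest Pearson correlation with argk-1 over 12 libraries (r = 0.969) and the highest Spearman correlation (0.93). With the group means removed r was 0.85, which ranked 7 of 13160. Over the 8 EV and cat-1 RNAi libraries alone r was 0.805, which ranked 80, so the first rank rested in part on the cat-2 RNAi libraries that chose argk-1.

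cth-1 measured 33.51, 31.48, 39.1 and 39.67 RPKM in EV. It measured 28.05, 33.25, 32.41 and 39.67 RPKM in cat-1 RNAi. In cat-2 RNAi it measured 18.39, 21.94, 25.61 and 17.4 RPKM, each below every library of the other groups. Among all genes tested, 2.42% had every cat-2 RNAi library below every EV library, and 1.23% below every cat-1 RNAi library. The libraries kept the same order for both genes in cat-2 RNAi, from replicate 4 through 1 and 2 to 3. For cat-2 RNAi against EV the log2 difference of cth-1 was -0.78 (SE 0.126), a smaller fall than the -1.06 of argk-1.

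The ratio of argk-1 to cth-1 RPKM was accordingly lower in cat-2 RNAi, at 0.47 ± 0.0431, against 0.578 ± 0.0378 in EV and 0.553 ± 0.0499 in cat-1 RNAi. Its highest value in cat-2 RNAi, 0.502, was below its lowest in EV, 0.539, and in cat-1 RNAi, 0.517. The choice of argk-1 for its fall in cat-2 RNAi favors a lower ratio there, so nothing is read from this separation. On the other side of argk-1 the nearest protein-coding gene, srxa-16, lay 7039 bases away and was listed at 0 RPKM in all EV and cat-2 RNAi libraries, so it offered no comparison.

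**Figure D4:**
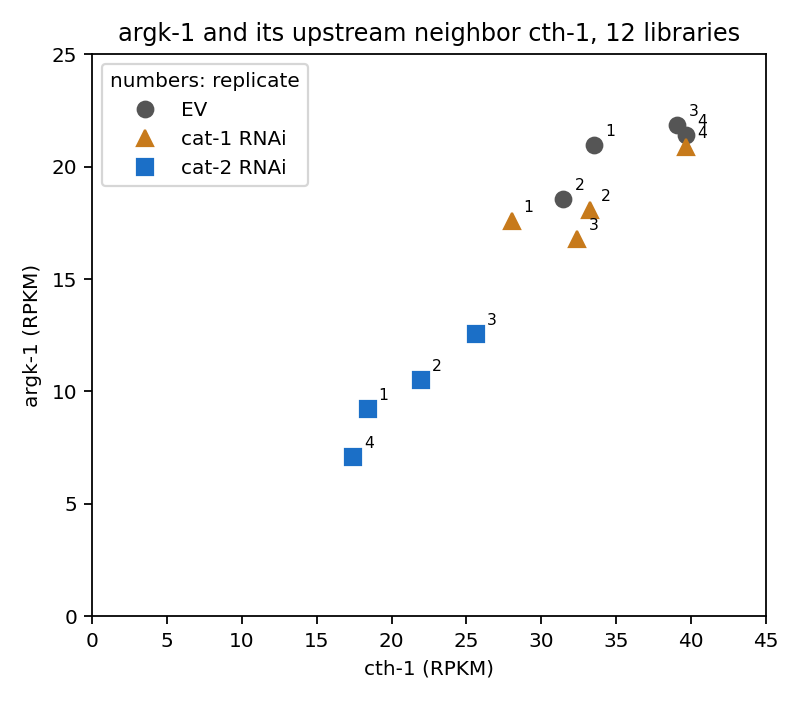
RPKM of argk-1 against RPKM of cth-1 in the 12 libraries, with replicate numbers beside the points. The cat-2 RNAi libraries lie at 17.4 to 25.61 RPKM of cth-1 and 7.073 to 12.55 RPKM of argk-1, apart from the other 8.

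The next genes most like argk-1 were iff-1 (r = 0.887), C03B8.3 (0.879), col-20 (0.877) and ifb-2 (0.866). iff-1 encodes a translation factor of the eIF5A type, col-20 a cuticle collagen and ifb-2 an intermediate filament protein of the intestine. With the group means removed their r fell to between 0.24 and 0.543, so the likeness lay mostly in the group difference. col-20 went from 79.0 ± 11.69 RPKM in EV to 52.68 ± 2.233 in cat-2 RNAi, and ifb-2 from 16.66 ± 0.1478 to 13.98 ± 0.6667. At the opposite end, cat-2 itself had the lowest r of all 13160 genes (-0.95), a place looked up after its values were seen. cat-2 entered the model only through the cat-2 RNAi libraries, at 0.728 to 1.901 RPKM, and reached at most 0.2633 RPKM elsewhere. Since argk-1 was chosen for being low in the cat-2 RNAi libraries, a strongly negative r was set in advance. Nothing is read from it or its rank. With the group means removed the r of cat-2 was -0.686, which ranked 12924 of 13160 from the highest. Its Spearman correlation was -0.713, which ranked 12980, so it was not the lowest by these measures. Over the 8 EV and cat-1 RNAi libraries, where cat-2 had 2 to 9 reads a library, r was 0.031.

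The neighbors of the other members were also read in both comparisons with EV. Beside F46H5.3, F46H5.7 differed by -0.02 in cat-1 RNAi and 0.01 in cat-2 RNAi on the log2 scale, and syd-9 by -0.01 and 0.03. Beside W10C8.5, W10C8.4 differed by -0.33 and -0.30 with means under 1 RPKM, and W10C8.6 by -0.05 and 0.46. Beside ZC434.8, the differences were -0.03 and -0.11 for the overlapping coa-6, 0.03 and 0.04 for aph-2, and -0.16 and -0.31 for ZC434.9. Beside F32B5.1, lin-17 differed by 0.16 and 0.15, and F32B5.2 was too low to be tested. None of these 8 tested neighbors passed an adjusted p of 0.05 in limma, nor an unadjusted p of 0.05.

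**Figure D5:**
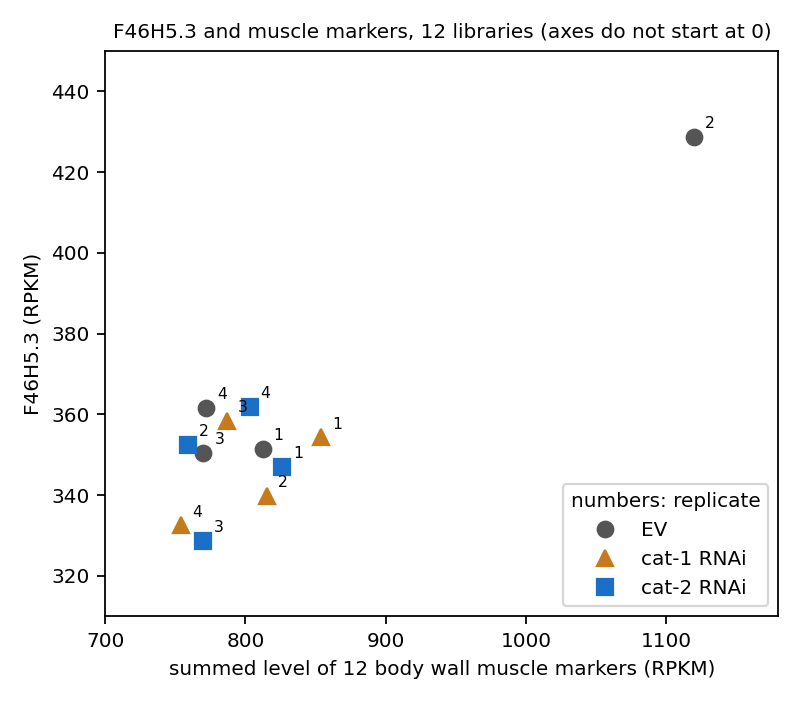
RPKM of F46H5.3 against the summed RPKM of 12 body wall muscle markers in the 12 libraries, with replicate numbers beside the points and axes that do not start at 0. EV replicate 2 lies at 1120 and 428.8, and the other 11 libraries at 753.8 to 853.8 and 328.7 to 361.8.

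The pattern of F46H5.3 was set by EV replicate 2. Its most similar genes were nrf-5 (r = 0.92), Y37D8A.2 (0.919), lev-11 (0.918), Y69H2.3 (0.914) and cpn-3 (0.909). lev-11 encodes tropomyosin, a protein of muscle thin filaments, cpn-3 a protein of the calponin family, and nrf-5 a secreted lipid-binding protein. All 5 were highest in EV replicate 2, and without that library their r with F46H5.3 was 0.523 to 0.572, ranking between 498 and 794. Body wall muscle markers, 12 of 12 found, summed to 1120 RPKM in EV replicate 2 and to 753.8 to 853.8 in the other 11 libraries, and 9 of the 12 markers were highest there. Without that library the EV mean was 354.5 ± 6.135 RPKM for F46H5.3 and 37.33 ± 1.679 RPKM for W10C8.5 (n = 3). The part of muscle RNA in the high values of F46H5.3 and W10C8.5 in this library was not tested.

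ZC434.8 ran with another set of genes. Looked up after its values were seen, the genes most like it were rps-16 (r = 0.969), psf-1 (0.962), rpl-10 (0.955), rpl-11.2 (0.954) and rpl-12 (0.948). All but psf-1, which encodes a subunit of the GINS replication complex, encode ribosomal proteins. rps-16 stood at 1320 ± 35.94 RPKM in EV, 1263 ± 205.3 in cat-1 RNAi and 1193 ± 304.4 in cat-2 RNAi, with the wider spread in the RNAi groups that ZC434.8 also had. Without cat-1 RNAi replicate 1 and cat-2 RNAi replicate 2, the libraries in which ZC434.8 was lowest, r was 0.80 for rps-16, 0.84 for rpl-10, 0.572 for psf-1, 0.638 for rpl-11.2 and 0.672 for rpl-12. cat-2 RNAi replicate 2 is also the library with the lowest quality weight.

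Related genes were read from 3 lists, 2 around the substrates of arginine kinase and 1 of signaling genes. Of 16 genes tested for arginine, ornithine, proline and polyamine metabolism (20 named), 0 passed an adjusted p of 0.05 in either comparison with EV by limma or by voom. At an unadjusted p of 0.05, 0 were higher and 1 lower in cat-1 RNAi, and 1 was higher and 2 lower in cat-2 RNAi. The shares over all genes, in either direction, were 5.94% and 8.84%. The list's median log2 difference was -0.04 in cat-1 RNAi and -0.03 in cat-2 RNAi, against 0.00 and 0.01 over all genes. alh-6, the mitochondrial dehydrogenase of proline breakdown, ranged from 29.34 to 30.71 RPKM in EV and from 25.73 to 27.51 in cat-2 RNAi (log2 difference -0.15, adjusted p = 0.488). prmt-1, a protein arginine methyltransferase, differed by -0.14 there (adjusted p = 0.509). oatr-1, the ornithine aminotransferase, differed by -0.09 in cat-1 RNAi (adjusted p = 0.819), and pycr-1, a reductase of proline synthesis, by 0.22 (adjusted p = 0.827).

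Genes that handle ATP and ADP directly gave a similar picture. Of 22 tested for adenine nucleotide kinases, ATP/ADP carriers and AMPK (24 named), 0 passed an adjusted p of 0.05 in either comparison with EV by limma or by voom. At an unadjusted p of 0.05 there were 0 in cat-1 RNAi and 2 in cat-2 RNAi, both lower, against 5.94% and 8.84% of all genes, and the list's medians were -0.02 and -0.01. ant-1.1, the abundant mitochondrial ADP/ATP carrier, ranged from 1746 to 1861 RPKM in EV and from 1591 to 1672 in cat-2 RNAi (-0.14, adjusted p = 0.487). ndk-1, a nucleoside diphosphate kinase, ranged from 1678 to 1815 and from 1606 to 1652 (-0.11, adjusted p = 0.555). Both genes were named for having the smallest p of the list in this comparison. Their cat-2 RNAi libraries lay below every EV library, which 2.42% of all genes had, and their differences were far smaller than that of argk-1. F38B2.4, an adenylate kinase, differed by -0.21 in cat-1 RNAi (adjusted p = 0.827).

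The third list held 22 genes of TOR, S6 kinase and insulin signaling, all tested, of which 0 passed an adjusted p of 0.05 in either comparison with EV by limma or by voom. Before adjustment 2 were higher and 0 lower in each comparison, against 5.94% of all genes in cat-1 RNAi and 8.84% in cat-2 RNAi in either direction, and the medians were -0.01 in cat-1 RNAi and 0.02 in cat-2 RNAi. rict-1, which encodes the Rictor subunit of TORC2, differed by 0.19 in cat-2 RNAi (adjusted p = 0.289 by limma). daf-2, the insulin receptor gene, differed by 0.16 in cat-1 RNAi and 0.17 in cat-2 RNAi. rsks-1, the S6 kinase gene tied to argk-1 in the background above, differed by 0.09 and 0.07. Both RNAi groups were set against the same EV libraries.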

How the data were processed

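mRNA of whole worms was enriched by poly(A), sequenced as paired reads and processed by the authors with CLC software against genome build ce11. The deposited table holds 1 RPKM value per feature and library, which the authors obtained from reads, feature length and mapped reads, together with group means and p-values (the authors' own comparisons, deposited but not used here). For strand and multiply placed reads, the settings were not given in those sources.

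Whole reads were recovered from the steps of the RPKM values for 100% of 20423 features (within 0.0001 of a whole number). Features were matched by name to the Ensembl annotation (20128 features), with a median ratio of recovered to annotated length of 0.997. A test on counts had been planned. Because the table holds RPKM, log2(RPKM + 0.5) was fitted with limma 3.58.1 (R 4.3.3, trend and robust) over all 12 libraries, for genes with 0.5 RPKM or more in 4 libraries or more, with Benjamini-Hochberg adjustment within each of 3 comparisons. The fold changes are on that scale, and the pseudocount makes those of low genes too small. voom on the recovered reads, other scalings, filters and pseudocounts, quality weights, a replicate block and leaving out libraries were alternatives. The code was tested on simulated data. Intervals of read ratios are exact binomial. Percentiles are among the genes tested.

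The members and the 13 gene lists (3 of related genes, 10 of cell type markers, 179 names, of which 4 were not found and 1 was at 0) were chosen with earlier results of these data known. The named genes are all members, their nearest genes, the 5 genes most correlated with argk-1 and with F46H5.3, and from each of the 3 lists the 2 with the smallest p in each comparison with EV. Single markers and the genes most like ZC434.8 were chosen after seeing the data. So were the alternatives without cat-2 RNAi replicates 2 and 3 and the library subsets of the correlations. The rest was computed with scipy 1.17.1, pandas 2.3.3 and numpy 2.4.6 under Python 3.11.15.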

Additional observations from a re-analysis of the deposited data

Results flagged for a closer look

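F46H5.3 measured 428.8 RPKM in EV replicate 2, and the gap to the next EV library took up 0.858 of the range of the group, above the 95% limit of Dixon's test for 4 samples. It was the only one of 15 groups of 4 (5 genes in 3 groups) to stand out in this way, and chance alone gives about 1 in 20. The same library had the highest summed level of body wall muscle markers, 1120 RPKM, and the highest W10C8.5, 47.43 RPKM.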

How the results depend on the processing

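The argk-1 differences kept their sign in every alternative run. For the comparisons with cat-2 RNAi, leaving out libraries could not change it, since every cat-2 RNAi library was below every other. Those runs show only how far the size moved. Leaving out each library in turn gave log2 differences of -1.18 to -0.92 for cat-2 RNAi against EV, -1.01 to -0.75 for cat-2 RNAi against cat-1 RNAi and -0.24 to -0.13 for cat-1 RNAi against EV. Without cat-2 RNAi replicates 2 and 3, an alternative chosen after seeing the data, the first 2 became -1.3 and -1.13. The cat-1 RNAi difference of W10C8.5 reversed to 0.03 without EV replicate 2, in a range of -0.11 to 0.03 with 1 library left out. No gene of the 3 lists of related genes passed an adjusted p of 0.05 in any alternative run.

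The number of genes past an adjusted p of 0.05 in cat-2 RNAi against EV, 4 in the model used, was 1 with a pseudocount of 0.1, 0 with no filter, 2 with median ratio scaling, 2 with quantile normalization, 9 with library quality weights, 1 with a model of the 2 groups alone and 0 to 5 with 1 library left out. In cat-1 RNAi against EV it was 0, and 0 to 1 with 1 library left out (1 without cat-1 RNAi replicate 3). In cat-2 RNAi against cat-1 RNAi it was 0, and became 1 with quality weights, 1 with voom, 2 without cat-2 RNAi replicates 2 and 3, and 0 to 2 with 1 library left out. The cause was not tested.

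Deviations of same-numbered libraries correlated at -0.0578 to 0.185, and only 1 of 12 pairs exceeded 0.1. No strong shift shared by replicate number was thus seen. These values cannot show whether same-numbered libraries were prepared together, which the labels do not say. With the replicate number as a block the count for cat-2 RNAi against EV was 0, and the argk-1 difference was -1.06. Depth limits F32B5.1, with at most 9 reads a library.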

Other observations

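Within the libraries labelled cat-2 RNAi, the library with the most reads of the target was the one with the least argk-1. cat-2 measured 1.164, 0.728, 0.8365 and 1.901 RPKM in replicates 1 to 4, and argk-1 9.236, 10.52, 12.55 and 7.073 RPKM. In cat-1 RNAi the library with the most cat-1 reads, 61 in replicate 3, likewise had the lowest argk-1 of its group, 16.77 RPKM, and the lowest number of cat-1 reads in the group was 12. These 4 libraries a group were looked at after their values were seen and no test was made.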
